A study of Vitis vinifera with 15 samples.

Results

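“Gaglioppo” leaves from vines with Kober 5BB as the rootstock (GAG-KOB) were compared with those from vines with 17-37 Mgt (GAG-17-37). The comparison uses the 3 GAG-KOB and the 3 GAG-17-37 libraries, 6 of the 15 libraries of the series, which were picked by the combination and the replicate letter (A, B or C) in their names. Kober 5BB is a hybrid of Vitis riparia and Vitis berlandieri, and 17-37 Mgt is a hybrid of Vitis rupestris and Vitis berlandieri. In both combinations the scion was Vitis vinifera “Gaglioppo”, grown in the same irrigated vineyard in Calabria, and fully expanded leaves from the middle of the shoot were taken at the end of August. Each library pooled 2 leaves from each of 3 vines. According to the methods of the study, the combinations stood in adjacent blocks of the vineyard, so that rootstock and vineyard block cannot be told apart. The other 9 libraries, of GAG-41B, GAG-3309C and GAG-1103P, enter the filter on low genes and the estimate of the spread of each gene, and their values are given beside some genes and in the comparisons at the end.

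A rootstock is not the source of the RNA measured here, since only leaves of the scion were sampled. Roots supply the shoot with water, mineral nutrients and hormones, and in grapevine the choice of rootstock is known to act on vigor and on the response of the scion to drought and nutrition. Grapevine leaves are also known for a large family of stilbene synthase genes, whose products, resveratrol and its derivatives, are phytoalexins against downy and powdery mildew.

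Expression was given as FPKM, a read abundance corrected for the length of the transcript and the number of reads mapped, with 1 value per gene and library. According to the methods of the study, FPKM were also normalized by a geometric method. Of 29970 annotated genes, 21364 averaged 0.1 FPKM or more across all libraries and were tested on the scale log2(FPKM + 0.1), so that a log2 fold change (log2FC) of 1 is a doubling and changes of low genes are understated. Genes with an adjusted p of 0.05 or less in limma were counted as DEGs. The FPKM values of a library summed to between 1712237 and 1797627 in GAG-KOB and between 1567868 and 1615319 in GAG-17-37. In all 6 libraries the same gene, Vv19s0014g02740, had the highest value, 129730, 148416 and 146837 FPKM in GAG-KOB against 91373, 102601 and 95743 FPKM in GAG-17-37. It has no annotation in the sources used here. Replicate A stood apart from B and C in both combinations. Over 2991 genes above 100 FPKM, the spread (median absolute deviation) of the log2 difference between replicates B and C was 0.064 in GAG-KOB and 0.069 in GAG-17-37, while that between A and B was 0.178 in GAG-KOB and 0.191 in GAG-17-37. Within letters, the direction was the same in A alone and in B with C as in all 3 for 17017 of the 21364 genes tested (79.7%). For the DEGs, which were called on these libraries, it was the same in 7098 of 7105, a description and no separate check. Without replicate A of both combinations, 5544 DEGs were called, of which 5356 were among the 7105, and 128 of the 5544 differed 4-fold.

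Of the genes tested, 7105 (33.3%) were DEGs between GAG-KOB and GAG-17-37. Transcripts of 3707 genes (17.4%) were higher and those of 3398 genes (15.9%) were lower in GAG-KOB. The 3 values of each combination did not overlap in 9961 genes (46.6%), 23.5% with GAG-KOB above and 23.1% with GAG-KOB below. Most differences were small. Of the DEGs, 6078 (85.6%) differed by less than 2-fold, and the median size of their log2FC was 0.50. A 4-fold difference was reached by 118 DEGs (0.552% of the genes tested), 79 of them higher (0.37%) and 39 lower (0.183%) in GAG-KOB. Of the 79, 33 had a mean under 1 FPKM and 8 overlapped between the combinations, and of the 39 these were 16 and 9. The number of 4-fold DEGs was 30 with 1 FPKM added in place of 0.1 and 183 with 0.01 FPKM added. The split between higher and lower DEGs depended on the scaling between libraries. The values as deposited carry the geometric normalization of the study, and the other scalings replace it. With the FPKM of every library scaled to the same total, 2404 DEGs were higher and 5750 lower in GAG-KOB, and the median log2FC of all genes was −0.14, against −0.00 with the values as deposited. With the same median in every library, 4550 were higher and 2569 lower, and the median of all genes was 0.06.

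**Figure D1:**
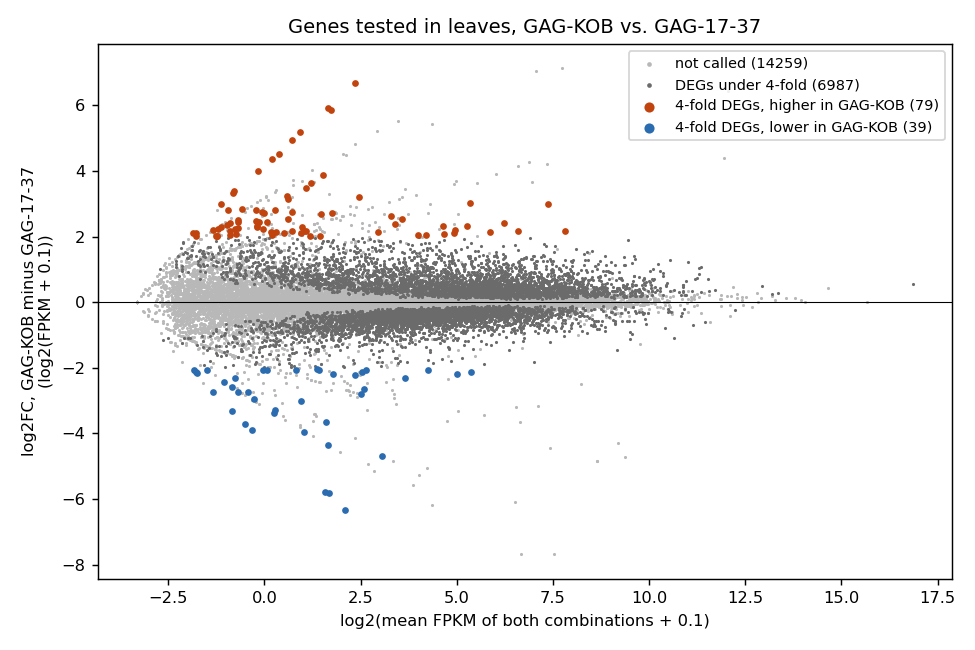
Mean expression of both combinations (x axis, log2 of FPKM + 0.1) and log2FC of GAG-KOB minus GAG-17-37 (y axis) for the 21364 genes tested, 1 point per gene. The 79 4-fold DEGs higher in GAG-KOB lie above and the 39 lower ones below the mass of small differences, and the 226 genes at 4-fold or more that were not called (pale points outside −2 and 2) were all listed at 0 in at least 1 of the 6 libraries.

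Among annotated genes that reached 1 FPKM on average and whose libraries kept the combinations apart, the largest increase in GAG-KOB was that of Vv19s0014g04690, which codes for an indole-3-acetic acid-amido synthetase, an enzyme that conjugates auxin to amino acids. It had 3.02, 2.23 and 2.68 FPKM in GAG-KOB, against 0.2398, 0.2497 and 0.151 FPKM in GAG-17-37 (log2FC 3.13 ± 0.29 SE). In the other 3 combinations its mean was between 0.402 and 0.956 FPKM, so that GAG-KOB was the highest of the 5. Vv02s0025g02960 is annotated as naringenin 3-dioxygenase, another name of flavanone 3-hydroxylase, an early step of flavonoid synthesis. It had 3.19, 2.603 and 2.41 FPKM in GAG-KOB, against 0.409, 0.217 and 0.3695 FPKM in GAG-17-37 (log2FC 2.74 ± 0.20 SE). The DREB-type ERF/AP2 transcription factor gene Vv11s0016g00660, of a group known for cold and drought responses, had 5.902, 6.196 and 5.098 FPKM in GAG-KOB, against 0.824, 1.23 and 0.457 FPKM in GAG-17-37 (log2FC 2.72 ± 0.26 SE). All of these were low genes in GAG-17-37, with no library above 1.23 FPKM.

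Higher expressed genes were also found among the 10 largest increases. Allene oxide cyclase, Vv01s0011g03090, which makes the first jasmonate precursor with the natural ring structure, had 39.9, 43.7 and 41.2 FPKM in GAG-KOB, against 7.48, 8.28 and 8.83 FPKM in GAG-17-37 (log2FC 2.33 ± 0.12 SE, adjusted p = 4.45e-08). The salicylic acid carboxyl methyltransferase gene Vv04s0023g02230, whose enzyme forms volatile methyl salicylate, had 20.1, 20.5 and 20.3 FPKM in GAG-KOB, against 3.23, 3.86 and 3.17 FPKM in GAG-17-37 (log2FC 2.54 ± 0.14 SE, adjusted p = 6.24e-08). The glutathione S-transferase gene Vv08s0040g00920, of the plant-specific tau class that conjugates glutathione to reactive compounds, had 15.2, 17.9 and 17.2 FPKM in GAG-KOB, against 2.53, 2.89 and 2.49 FPKM in GAG-17-37 (log2FC 2.63 ± 0.16 SE). In each of these genes the lowest GAG-KOB library was above 4 times the highest GAG-17-37 library. The calcium sensor genes calmodulin (Vv01s0010g02930, log2FC 2.40 ± 0.26 SE) and a calcium-binding EF-hand gene (Vv01s0010g03040, log2FC 2.29 ± 0.20 SE) were up-regulated as well, as were a sulfate transporter (Vv05s0020g03930, log2FC 2.55 ± 0.27 SE) and a beta-ketoacyl-CoA synthase of the elongation of very long fatty acids (Vv07s0141g00060, log2FC 2.70 ± 0.21 SE). Vv06s0004g01510, without annotation in the sources used here, was added after its values were seen. It had 75.1, 71.2 and 70.4 FPKM in GAG-KOB, against 9.74, 9.15 and 7.88 FPKM in GAG-17-37 (log2FC 3.01 ± 0.14 SE).

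The largest decrease in GAG-KOB in an annotated gene with values above 0 was that of a germin gene, Vv14s0128g00570, of a family of cell wall proteins. It had 0.134, 0.0929 and 0.213 FPKM in GAG-KOB, against 4.75, 2.72 and 3.704 FPKM in GAG-17-37 (log2FC −3.95 ± 0.31 SE). Another gene annotated as naringenin 3-dioxygenase, Vv15s0048g02430, fell to 1.85, 1.17 and 1.11 FPKM in GAG-KOB, against 10.1, 9.47 and 10.1 FPKM in GAG-17-37 (log2FC −2.80 ± 0.17 SE). The expansin gene EXPA15 (Vv01s0026g02620), for a protein that loosens cell walls during growth, had 1.302, 1.42 and 1.999 FPKM in GAG-KOB, against 8.88, 11.4 and 10.6 FPKM in GAG-17-37 (log2FC −2.65 ± 0.24 SE). Its mean was 34.6 FPKM in GAG-1103P and 0.617 FPKM in GAG-41B, the highest and the lowest of the 5 combinations.

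A class I small heat shock protein gene, Vv06s0004g05770, for a chaperone for unfolded proteins, had 4.64, 3.78 and 3.91 FPKM in GAG-KOB, against 17.6, 21.1 and 23.4 FPKM in GAG-17-37 (log2FC −2.30 ± 0.29 SE). Both S-linalool synthase genes among the 10 largest decreases belong to the enzymes that make the floral monoterpene linalool. Vv00s0692g00020 had 1.82, 1.62 and 1.73 FPKM in GAG-KOB, against 8.53, 7.72 and 8.79 FPKM in GAG-17-37 (log2FC −2.21 ± 0.24 SE), and Vv10s0116g00750 had 0.773, 1.14 and 0.919 FPKM in GAG-KOB, against 4.67, 3.73 and 4.34 FPKM in GAG-17-37 (log2FC −2.07 ± 0.24 SE). Ent-kaurene synthase (Vv00s1319g00010), of the first steps of gibberellin synthesis, fell by 2.05 on the log2 scale, a call that was lost with 0.01 FPKM added in place of 0.1. The ethylene-responsive factor gene ERF113 (Vv14s0068g01040) and an oligopeptide transporter of the POT family (Vv14s0066g02020) fell by 2.05 and 2.06.

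Several of the most extreme genes were listed at 0 in all 3 libraries of 1 combination, and no fold is given for them. Vv17s0000g10370, without annotation in the sources used here, had 10.2, 11.03 and 9.05 FPKM in GAG-KOB and was listed at 0 in all 3 GAG-17-37 libraries. Vv00s0198g00010, of unknown function, had 4.67, 6.27 and 7.20 FPKM in GAG-KOB and was likewise listed at 0 in GAG-17-37. In the other direction, Vv15s0021g02400 and Vv17s0000g08190, both without annotation, and Vv00s0275g00060, annotated as a TIR-NBS-LRR disease resistance protein, were listed at 0 in all 3 GAG-KOB libraries. In GAG-17-37 these had 5.48, 11.6 and 7.92 FPKM, 8.66, 3.69 and 5.02 FPKM, and 10.7, 3.40 and 4.63 FPKM. The calls for Vv17s0000g10370, Vv17s0000g08190 and Vv00s0275g00060 were lost without replicate A of both combinations, and that for Vv00s0275g00060 also without replicate A of GAG-17-37. Of the 4-fold DEGs, 14 of the 79 higher ones were listed at 0 throughout GAG-17-37 and 16 of the 39 lower ones throughout GAG-KOB. An exact 0 can also stand for a failed estimate in such files. In 134 genes a library listed at 0 stood beside another of the same combination with at least 10 FPKM, and 0 of these genes were DEGs.

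**Figure D2:**
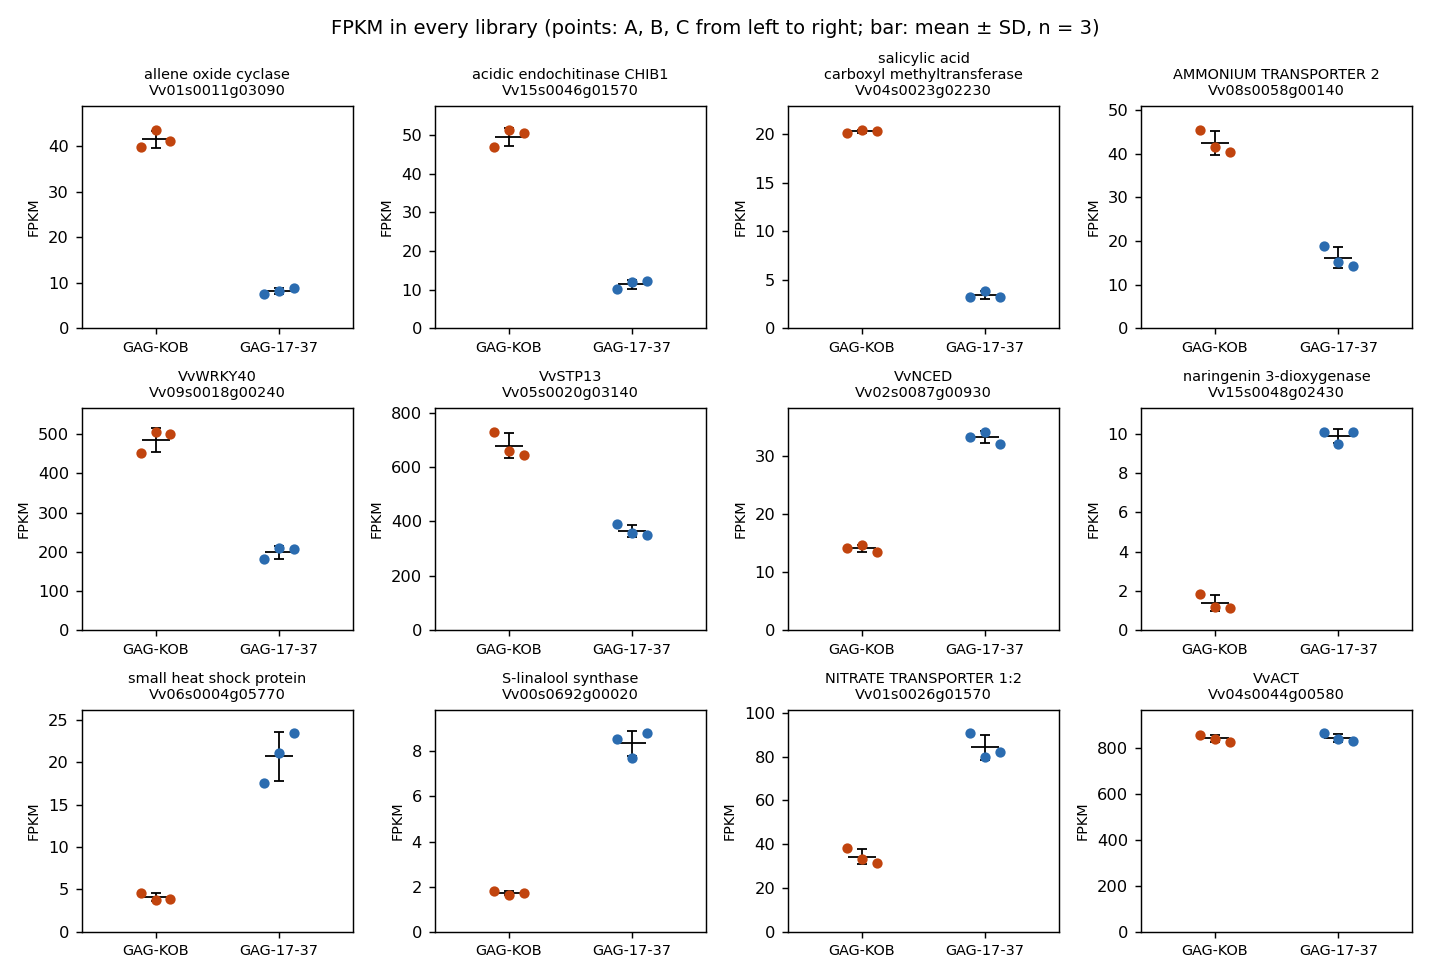
FPKM (y axes, starting at 0) of 12 named genes in the 3 GAG-KOB libraries (left in each panel) and the 3 GAG-17-37 libraries (right), with mean ± SD. The first 6 genes sit higher and the next 5 lower in GAG-KOB with no overlap, while the values of the actin gene VvACT overlap.

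Functions were read from published annotations of 2692 genes, all of which were tested. These genes had been selected on 4-fold differences from GAG-1103P in the same set of libraries, so that they are not independent of the libraries compared here. Of them, 1154 (42.9%) were higher and 553 (20.5%) lower in GAG-KOB, with a median log2FC of 0.38. Among the 18672 other genes, 2553 (13.7%) were higher and 2845 (15.2%) lower, with a median of −0.02. By functional category, 135 of 263 signal transduction genes (51.3%) were higher and 28 (10.65%) lower, with a median log2FC of 0.47. Of 242 transport genes, 127 (52.5%) were higher and 42 (17.4%) lower (median 0.56). Of 216 secondary metabolism genes, 113 (52.3%) were higher and 39 (18.1%) lower (median 0.60). Stress response genes had 119 of 256 (46.5%) higher and 30 (11.7%) lower (median 0.49), a share higher near the 42.9% above. Carbohydrate, lipid and cellular homeostasis genes had 48.2%, 48.05% and 47.9% higher and 22%, 27.3% and 19.15% lower. Genes for pentatricopeptide repeat proteins, which act on organelle RNA, had 3 of 33 members (9.09%) higher and 15 (45.45%) lower (median −0.48). Genes of DNA and RNA metabolism had 20 of 81 (24.7%) higher and 26 (32.1%) lower (median −0.26).

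Within these annotated genes, 24 lists were counted by pathway, family or hormone. More members were higher than lower in 22 of them, as was the case for the annotated genes as a whole, and each list is to be read against their 42.9% higher and 20.5% lower rather than against all genes. With every library scaled to the same total, the lower members were more numerous in the lists of terpenoid genes (3 higher, 10 lower) and ABA genes (6 and 9). The same held for glutathione S-transferases (3 and 4), heat shock proteins and factors (4 and 5) and photosynthesis genes (3 and 4). In the auxin genes they were equal (19 and 19).

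**Figure D3:**
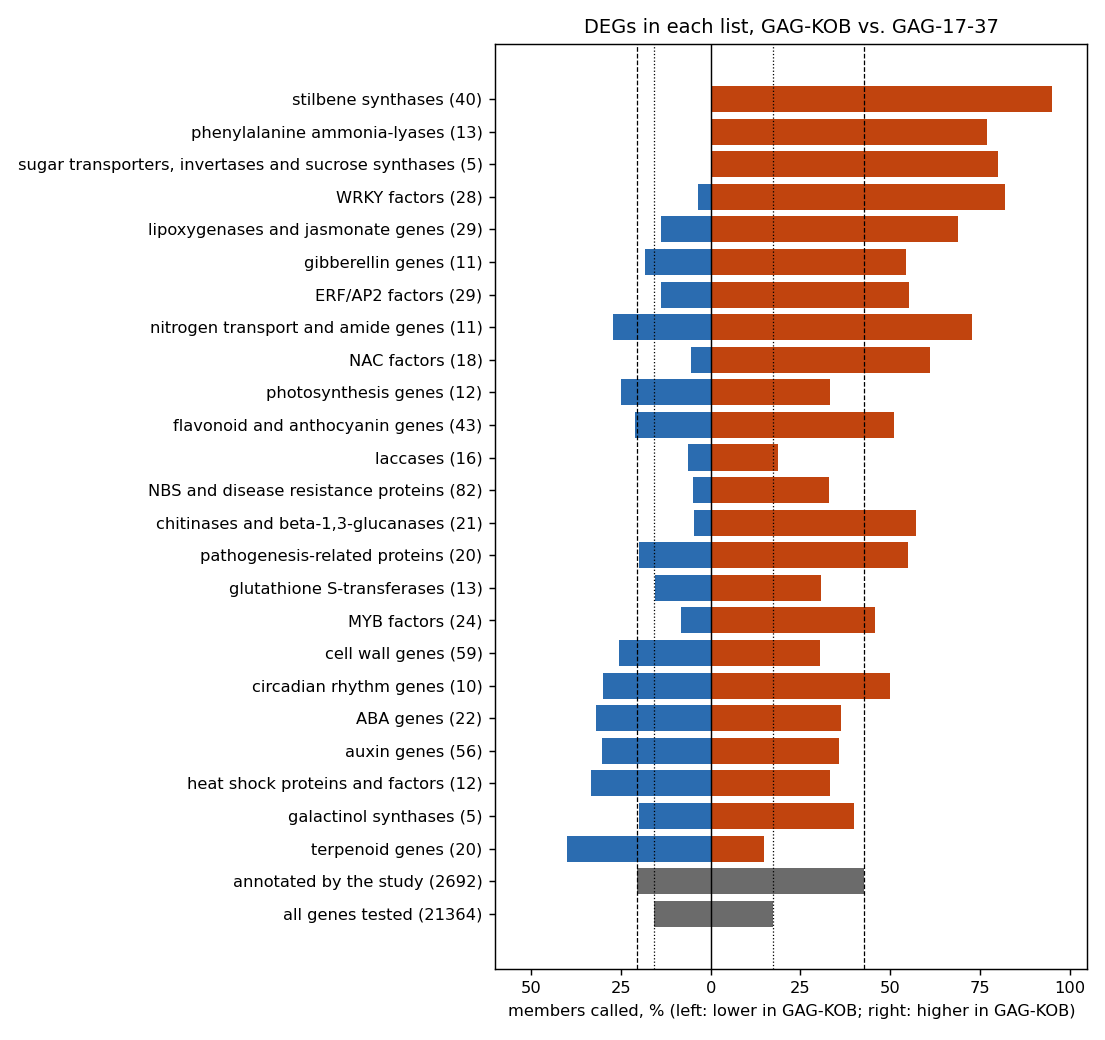
Share of the members of each list called higher (right, orange) or lower (left, blue) in GAG-KOB, as % of the members tested (number in parentheses), with lists ordered by their median log2FC. The dotted lines mark all genes tested, 17.4% higher and 15.9% lower, the dashed lines the annotated genes from which the lists were drawn, 42.9% and 20.5%, and stilbene synthases, phenylalanine ammonia-lyases, WRKY factors and the sugar list lie farthest to the right.

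The phenylpropanoid pathway begins with phenylalanine ammonia-lyase (PAL), which turns phenylalanine into cinnamic acid, and branches into stilbenes, made by stilbene synthase (STS), and flavonoids, made from chalcone synthase onward. Of the 40 STS genes, 38 (95%) were higher in GAG-KOB and 0 were lower, with a median log2FC of 1.20, and 36 were called higher without replicate A. In 39 of them the values of the combinations did not overlap. The highest expressed member, Vv16s0100g00950, chosen by its level, had 2900.0 FPKM in GAG-KOB and 1244 FPKM in GAG-17-37 as means of 3 libraries. The summed FPKM of the 40 genes was 5762, 5606 and 5636 in GAG-KOB, against 2389, 2483 and 2508 in GAG-17-37. The sums did not overlap. VvSTS16 (Vv16s0100g00920) had 43.3, 44.3 and 39.3 FPKM in GAG-KOB, against 15.1, 16.01 and 14.4 FPKM in GAG-17-37 (log2FC 1.47 ± 0.068 SE, adjusted p = 1.94e-08), and VvSTS48 (Vv16s0100g01200) had 109, 111 and 107 FPKM in GAG-KOB, against 51.6, 49.4 and 45.5 FPKM in GAG-17-37 (log2FC 1.16 ± 0.069 SE, adjusted p = 1.32e-07). The member with the largest increase, Vv10s0042g00860, had 259, 217 and 239 FPKM in GAG-KOB, against 80.8, 119.8 and 39.2 FPKM in GAG-17-37, and its GAG-17-37 values varied about 3-fold.

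**Figure D4:**
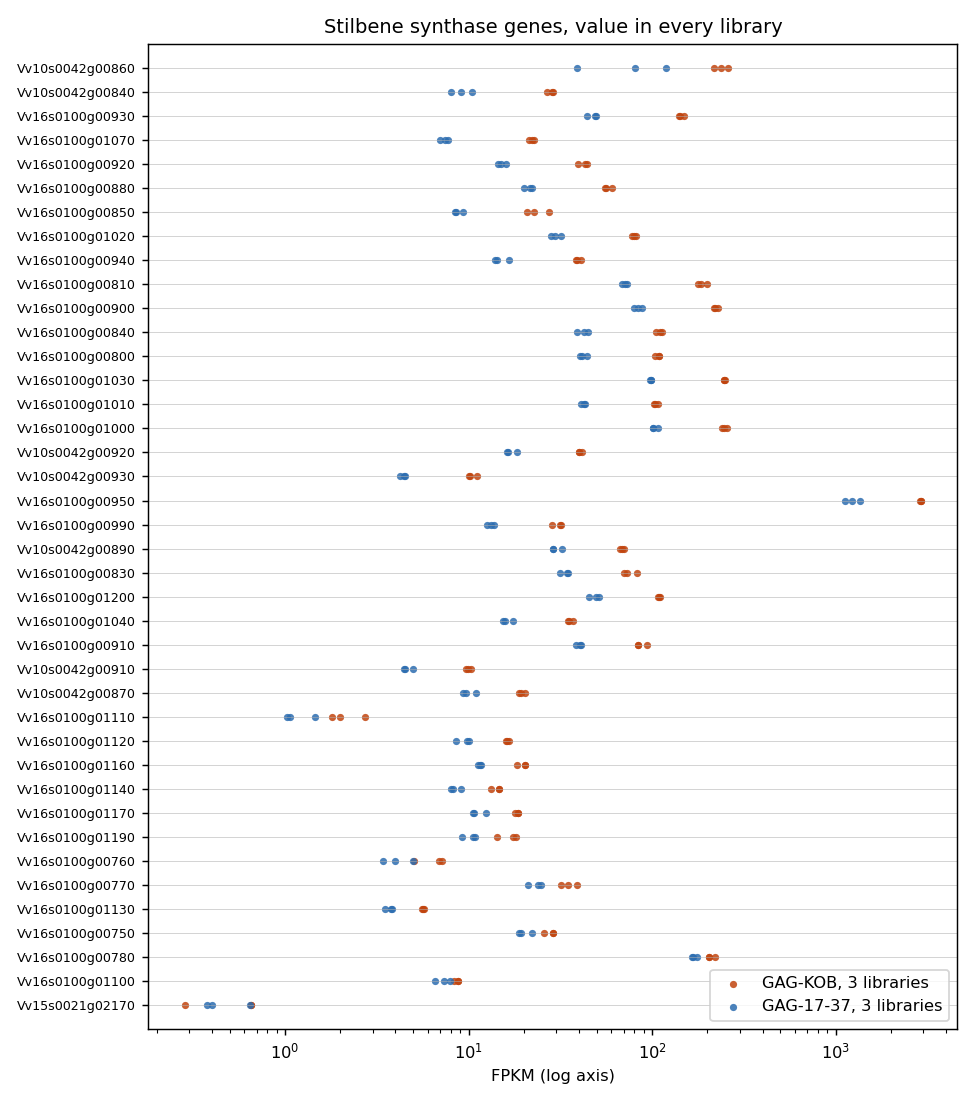
FPKM of the 40 stilbene synthase genes (rows, ordered by log2FC with the largest at the top) in each of the 3 GAG-KOB (orange) and 3 GAG-17-37 (blue) libraries, on a log axis. Orange points lie to the right of blue ones in nearly every row, and the bottom rows, Vv15s0021g02170 and Vv16s0100g01100, were not called.

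STS genes are near-identical copies, and their identifiers place them mostly in tandem groups. The deposited values do not show how reads that fit several copies were divided. The sum over the family does not depend on that division as far as the reads stay within it. Of 13 PAL genes, 10 (76.9%) were higher and 0 lower (median log2FC 1.01), and their summed FPKM was 220.1, 235.7 and 221.9 in GAG-KOB, against 101.5, 105.9 and 107.0 in GAG-17-37. The member with the largest increase, Vv16s0039g01110, had 9.83, 10.1 and 8.48 FPKM in GAG-KOB, against 3.62, 4.095 and 3.94 FPKM in GAG-17-37.

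The flavonoid and anthocyanin genes were mixed. Of 43 members, 22 (51.2%) were higher and 9 (20.9%) lower, with a median log2FC of 0.50. Beside the naringenin 3-dioxygenases already described, the list held 4 genes annotated as chalcone synthase alone, named here after their values were seen, and all 4 were higher, with log2FC of 0.76 (Vv03s0038g01460), 1.22 (Vv14s0068g00920), 1.26 (Vv16s0100g00860) and 1.55 (Vv14s0068g00930). The identifier of Vv16s0100g00860 lies among those of the stilbene synthases, and its mean of 2295 FPKM in GAG-41B and 16.2 FPKM in GAG-1103P followed their order. Vv15s0021g02170, annotated as chalcone and stilbene synthase and held by both lists, was not called (log2FC 0.10). Vv16s0098g00860, annotated as flavanone 3-hydroxylase, was more abundant than both genes annotated as naringenin 3-dioxygenase. It was higher, with means of 56.1 FPKM in GAG-KOB and 30.8 FPKM in GAG-17-37 (log2FC 0.86), and was named after its values were seen. Genes annotated as transferases of sugars or acyl groups went both ways, with 9 higher and 7 lower. The other lower members were a chalcone reductase and naringenin 3-dioxygenase. Of 16 laccases, copper oxidases known for lignin polymerization, 3 (18.8%) were higher and 1 was lower. The laccase with the largest increase, Vv15s0046g00190, had 1.65, 1.92 and 2.01 FPKM in GAG-KOB, against 0.842, 0.662 and 0.942 FPKM in GAG-17-37.

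With the values as deposited, terpenoid genes were the 1 list with more members lower than higher in GAG-KOB. They kept that direction under each of the scalings tried, though with the same FPKM total other lists had it as well. Of 20 members, 8 (40%) were lower and 3 (15%) higher, with a median log2FC of −0.31. The lower ones included the S-linalool synthases described above. The largest increase was also that of a gene annotated as linalool synthase, Vv00s0271g00060, with 1.24, 1.01 and 1.79 FPKM in GAG-KOB, against 0.151, 0.0891 and 0.405 FPKM in GAG-17-37 (log2FC 2.29), a gene with a mean under 1 FPKM that was added after its values were seen. The cytochrome P450 gene Vv06s0004g06480 (CYP71E) was higher as well, with 61.3, 59.2 and 57.1 FPKM in GAG-KOB, against 28.6, 25.99 and 28.98 FPKM in GAG-17-37. The summed FPKM of the list was 197.5, 201.8 and 202.5 in GAG-KOB and 214.7, 220.2 and 216.3 in GAG-17-37.

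Of 28 WRKY genes, transcription factors known for their part in defense, 23 (82.1%) were higher and 1 was lower (median log2FC 0.78). VvWRKY40 (Vv09s0018g00240), related to a regulator of the response to pathogens in Arabidopsis, had 451, 507 and 499.7 FPKM in GAG-KOB, against 180.2, 209 and 207 FPKM in GAG-17-37 (log2FC 1.29 ± 0.082 SE, adjusted p = 2.26e-07). VvWRKY18 (Vv04s0008g05760) had 338, 352 and 359 FPKM in GAG-KOB, against 239, 253 and 258 FPKM in GAG-17-37 (log2FC 0.48 ± 0.050 SE), a smaller difference with no overlap. The largest increase of the family was that of WRKY51 (Vv04s0069g00970), with 18.8, 22.3 and 20.5 FPKM in GAG-KOB, against 5.43, 5.63 and 6.96 FPKM in GAG-17-37, and the single decrease that of WRKY21 (Vv02s0154g00210), with 23.1, 21.6 and 22.1 FPKM in GAG-KOB, against 45.1, 39.2 and 36 FPKM in GAG-17-37.

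NAC factors, regulators of stress responses and senescence, had 11 of 18 (61.1%) higher and 1 lower. With the replicate letter as a block, 12 were higher and 2 lower. NAC42 (Vv19s0027g00860) rose to 2.73, 1.96 and 2.17 FPKM in GAG-KOB, against 0.629, 0.806 and 0.499 FPKM in GAG-17-37, and NAC22 (Vv19s0027g00230) fell to 347, 344 and 343 FPKM in GAG-KOB, against 571, 609.9 and 583 FPKM in GAG-17-37. VvNAC17 (Vv19s0014g03290) differed little, with 589.6, 561 and 558 FPKM in GAG-KOB, against 528, 521 and 504 FPKM in GAG-17-37 (log2FC 0.14 ± 0.041 SE, adjusted p = 0.02). That call was lost without replicate A of GAG-KOB and without replicate C of GAG-17-37, and the log2FC was −0.01 with the same FPKM total in every library. VvNAC39 (Vv07s0031g02610) was not called, with 816, 787 and 792 FPKM in GAG-KOB, against 779, 745 and 729 FPKM in GAG-17-37 (adjusted p = 0.241, log2FC 0.09 with a 95% interval of −0.03 to 0.20). It was called with the replicate letter as a block (adjusted p = 0.0241), and its adjusted p ranged between 0.0158 and 0.546 over the alternatives.

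ERF/AP2 factors had 16 of 29 members (55.2%) higher and 4 lower (median log2FC 0.55), and MYB factors 11 of 24 (45.8%) higher and 2 lower (median 0.31). In the MYB list the largest increase was that of MYB3R1 (Vv01s0011g02680), related to cell cycle regulators, with 8.402, 8.81 and 9.24 FPKM in GAG-KOB, against 1.39, 1.66 and 4.53 FPKM in GAG-17-37. The largest decrease, that of a RADIALIS-like gene (Vv03s0063g02670), had 2.49, 2.04 and 0.585 FPKM in GAG-KOB, against 4.09, 4.97 and 10.5 FPKM in GAG-17-37, and its call was lost without replicate C of either combination.

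Of 82 NBS and disease resistance genes, the class of intracellular immune receptors, 27 (32.9%) were higher and 4 (4.88%) lower (median log2FC 0.37), and 51 were not called. The share higher was below the 42.9% of the annotated genes. An EDS1-like gene (Vv17s0000g07400), for a partner of such receptors in salicylic acid signaling, had 4.79, 4.91 and 4.71 FPKM in GAG-KOB, against 2.45, 1.73 and 1.74 FPKM in GAG-17-37, and a TIR-NBS-LRR gene (Vv18s0041g00210) had 1.61, 1.51 and 0.757 FPKM in GAG-KOB, against 2.42, 2.65 and 2.36 FPKM in GAG-17-37. The call for Vv18s0041g00210 was lost in a fit of the 6 libraries alone. Chitinases and beta-1,3-glucanases, which break fungal cell walls, had 12 of 21 (57.1%) higher and 1 lower (median 0.37). The acidic endochitinase gene CHIB1 (Vv15s0046g01570) had 46.99, 51.4 and 50.6 FPKM in GAG-KOB, against 10.1, 11.9 and 12.3 FPKM in GAG-17-37 (log2FC 2.11 ± 0.088 SE, adjusted p = 8.47e-09), while a beta-1,3-glucanase (Vv06s0061g00120) had 307, 259.9 and 259.7 FPKM in GAG-KOB, against 496, 432 and 419 FPKM in GAG-17-37.

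Pathogenesis-related proteins had 11 of 20 (55%) higher and 4 (20%) lower (median log2FC 0.33). A PR1 gene (Vv03s0088g00700), a marker of the salicylic acid response, had 16.8, 23.2 and 22.9 FPKM in GAG-KOB, against 6.72, 8.98 and 5.89 FPKM in GAG-17-37. The lower members were 3 genes of the PR10 family, which are small cytosolic proteins, and a thaumatin gene. Vv05s0077g01550, the PR10 gene with the largest decrease, had 205, 223 and 219.8 FPKM in GAG-KOB, against 373, 418 and 404 FPKM in GAG-17-37. PR10 genes were among the most abundant of the list, and the summed FPKM of the list overlapped between the combinations, with 10815, 11350 and 11559 in GAG-KOB and 10931, 12103 and 11448 in GAG-17-37.

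Of 29 lipoxygenase and jasmonate genes, 20 (69%) were higher and 4 (13.8%) lower (median log2FC 0.78). Lipoxygenase, allene oxide synthase and allene oxide cyclase are the successive enzymes of jasmonate synthesis, and jasmonate ZIM-domain (JAZ) proteins are repressors whose genes jasmonate itself induces. Both genes annotated as allene oxide cyclase were higher, Vv01s0011g03090 as given above and Vv14s0083g00110 with a log2FC of 1.10, and all 5 genes annotated as jasmonate ZIM-domain proteins were higher, with log2FC between 0.89 and 1.95. Of 2 allene oxide synthase genes, Vv18s0001g11630 was higher (0.79) and Vv03s0063g01820 lower (−0.95). The 8 of these genes other than Vv01s0011g03090 were singled out after their values were seen. As annotated, the list also holds genes of EDS1, PR1 and ethylene response factors. The largest decrease of the list was that of SEN1 (Vv04s0023g03600), a gene induced in darkness and senescence in Arabidopsis, with 17.8, 27.3 and 25.5 FPKM in GAG-KOB, against 54.96, 71.02 and 61.01 FPKM in GAG-17-37.

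ABA genes had 8 of 22 members (36.4%) higher and 7 (31.8%) lower. VvNCED (Vv02s0087g00930), for the enzyme that cleaves carotenoids in the rate-limiting step of ABA synthesis, had 14.1, 14.7 and 13.4 FPKM in GAG-KOB, against 33.3, 34.2 and 32.1 FPKM in GAG-17-37 (log2FC −1.24 ± 0.11 SE, adjusted p = 4.67e-06), with every GAG-KOB library below every GAG-17-37 library. Its mean was highest in GAG-1103P (83.2 FPKM) and lowest in GAG-41B (2.80 FPKM). The other gene annotated as 9-cis-epoxycarotenoid dioxygenase, Vv19s0093g00550, and ABA2 (Vv13s0019g01010), also of ABA synthesis, were lower as well, with log2FC of −0.37 and −0.61, and were named after their values were seen. An alternative oxidase (Vv02s0033g01380), which the annotation places in the ABA network and which acts in mitochondrial respiration, had 168, 192 and 185 FPKM in GAG-KOB, against 66.9, 72.95 and 67.4 FPKM in GAG-17-37 (log2FC 1.39 ± 0.060 SE).

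Auxin genes had 20 of 56 members higher (35.7%) and 17 lower (30.4%), with a median log2FC of −0.15, opposite in sign to the counts. Gibberellin genes had 6 of 11 (54.5%) higher and 2 lower (median 0.70), and both directions held a gibberellin 20-oxidase, an enzyme that makes active gibberellins. Vv15s0048g01320 had 2.25, 1.46 and 1.88 FPKM in GAG-KOB, against 0.748, 0.432 and 0.589 FPKM in GAG-17-37, and its mean was highest in GAG-KOB among the 5 combinations. Vv18s0001g06690 had 1.36, 1.36 and 1.32 FPKM in GAG-KOB, against 2.31, 2.72 and 2.78 FPKM in GAG-17-37. The call for Vv18s0001g06690 was lost without any 1 of the 6 libraries.

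Among genes of nutrition and sugars, nitrogen transport and amide genes had 8 of 11 (72.7%) higher and 3 (27.3%) lower (median log2FC 0.54), so that every member was called. An AMMONIUM TRANSPORTER 2 gene (Vv08s0058g00140) had 45.5, 41.7 and 40.4 FPKM in GAG-KOB, against 18.9, 15.3 and 14.3 FPKM in GAG-17-37 (log2FC 1.40 ± 0.12 SE, adjusted p = 1.89e-06). A gene annotated as NITRATE TRANSPORTER 1:2 (Vv01s0026g01570) had 38.1, 33.5 and 31.4 FPKM in GAG-KOB, against 90.7, 79.8 and 82.3 FPKM in GAG-17-37 (log2FC −1.30 ± 0.075 SE, adjusted p = 1.08e-07). All 3 genes annotated as AMMONIUM TRANSPORTER 2 were higher, while AMMONIUM TRANSPORTER 1;2 (Vv04s0043g00370) was lower (log2FC −1.14). The largest decrease of the list was that of asparagine synthetase (Vv06s0004g06830), with 0.458, 0.569 and 0.156 FPKM in GAG-KOB, against 1.44, 1.32 and 1.20 FPKM in GAG-17-37 (log2FC −1.63). Vv04s0043g00370 and Vv06s0004g06830 were added after their values were seen. The other gene annotated as NITRATE TRANSPORTER 1:2 (Vv10s0003g02030), named after its values were seen, was higher in GAG-KOB, with a log2FC of 0.70.

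Of 5 sugar transporter, invertase and sucrose synthase genes, 4 (80%) were higher and 0 lower (median log2FC 0.89). VvSTP13 (Vv05s0020g03140), a hexose importer of the plasma membrane, had 731, 660 and 646 FPKM in GAG-KOB, against 390.2, 358 and 349 FPKM in GAG-17-37 (log2FC 0.89 ± 0.16 SE, adjusted p = 0.000775), and Hexose transporter HT2 (Vv18s0001g05570) had 5.06, 4.17 and 5.05 FPKM in GAG-KOB, against 1.94, 1.82 and 2.48 FPKM in GAG-17-37. Galactinol synthases start the synthesis of raffinose sugars, which accumulate under heat and drought. Of 5, 2 were higher and 1 lower, with a median of −0.22. Vv14s0066g02350 had 27.6, 25.8 and 28.04 FPKM in GAG-KOB, against 9.59, 10.3 and 9.77 FPKM in GAG-17-37 (log2FC 1.45 ± 0.065 SE), while Vv01s0127g00470, the most abundant, had 1816, 1754 and 1703 FPKM in GAG-KOB, against 2190.0, 2057 and 1913 FPKM in GAG-17-37, a call that was lost without replicate B or C of GAG-KOB and without replicate A or B of GAG-17-37.

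Of 59 cell wall genes, 18 (30.5%) were higher and 15 (25.4%) lower (median log2FC 0.26). A polygalacturonase inhibitor (Vv06s0004g01750), which blocks fungal enzymes, had 2.91, 2.75 and 2.61 FPKM in GAG-KOB, against 0.611, 0.718 and 0.629 FPKM in GAG-17-37, and its mean was between 0.652 and 0.754 FPKM in the other 3 combinations. A cellulose synthase-like gene, CSLE1 (Vv00s0469g00020), had 15.8, 14.02 and 15.6 FPKM in GAG-KOB, against 43.6, 37.6 and 39.7 FPKM in GAG-17-37. Glutathione S-transferases had 4 of 13 higher (30.8%) and 2 lower (15.4%), and heat shock proteins and factors 4 of 12 in each direction. In the glutathione S-transferases, Vv06s0004g05680 fell to 270, 291 and 312 FPKM in GAG-KOB, against 512, 519 and 519 FPKM in GAG-17-37, and a cytosolic class II small heat shock protein (Vv04s0008g01490) rose to 23.7, 27.6 and 27.2 FPKM in GAG-KOB, against 10.96, 10.2 and 9.84 FPKM in GAG-17-37.

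The list of photosynthesis genes, the only leaf genes at hand, has 12 members. Their summed FPKM was 581.9, 603.7 and 601.1 in GAG-KOB and 500.7, 511.9 and 486.9 in GAG-17-37. Some members are annotated only by a plastocyanin domain. The most abundant of these, Vv11s0016g05530, had 328.5, 330.7 and 330.5 FPKM in GAG-KOB, against 224.7, 224.4 and 222.3 FPKM in GAG-17-37. The difference of the sums rested largely on this gene, which was called higher and is named after its values were seen. The 12 genes were selected like the other annotated ones on differences between these libraries, so that they are no neutral check of the tissue. No markers of other cell types are annotated. Of the 12, 4 (33.3%) were higher and 3 (25%) lower, the 3 lower ones being subunits of photosystem II or the cytochrome complex. An LHCII gene (CAB-1, Vv19s0014g00160), for a light-harvesting antenna protein, had 6.96, 9.68 and 10.5 FPKM in GAG-KOB, against 2.52, 4.21 and 3.55 FPKM in GAG-17-37, and PETC (Vv12s0134g00510), the iron-sulfur subunit of the cytochrome complex between the photosystems, had 26.3, 24.4 and 26.7 FPKM in GAG-KOB, against 40.6, 41.5 and 43.5 FPKM in GAG-17-37. Of 10 circadian rhythm genes, 5 were higher and 3 lower. CONSTANS-LIKE 9 (Vv12s0057g01350) had 26.6, 27.3 and 26.9 FPKM in GAG-KOB, against 13.8, 11.9 and 12.9 FPKM in GAG-17-37, and early flowering 4 (Vv11s0016g01370) had 21.7, 27.3 and 26 FPKM in GAG-KOB, against 43.9, 46.98 and 48.6 FPKM in GAG-17-37.

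Values of the reference genes overlapped between the combinations. The actin gene VvACT (Vv04s0044g00580) had 858, 842 and 828 FPKM in GAG-KOB, against 865, 841 and 830.1 FPKM in GAG-17-37, with a log2FC of −0.00 and a 95% interval of −0.11 to 0.10, and the ubiquitin gene VvUBI (Vv16s0098g01190) had 926, 987 and 1042 FPKM in GAG-KOB, against 908, 1036 and 984 FPKM in GAG-17-37, with a log2FC of 0.01 and an interval of −0.11 to 0.14. VvACT was called lower with the same FPKM total in every library, and VvUBI with quantile normalization.

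The same DEGs were then read in 2 comparisons that share no library with this one. All of these comparisons used the same estimate of the spread of each gene, so that their calls are not independent. Of the 3707 genes higher in GAG-KOB, 3149 (84.9%) were called higher and 240 (6.47%) lower in GAG-41B than in GAG-1103P, where 34.4% of all genes tested were called higher and 34.4% lower. Of the 3398 genes lower in GAG-KOB, 2734 (80.5%) were called lower and 240 (7.06%) higher in GAG-41B. For genes outside the annotated set the shares were 79.3% of 2553 and 78.1% of 2845. In GAG-3309C vs. GAG-1103P, 51.4% of the genes higher in GAG-KOB were called higher and 45.3% of those lower in GAG-KOB were called lower, against 22% higher and 21.1% lower of all genes. Across the 5 combinations, the mean was highest in GAG-41B for 2744 of the 3707 genes higher in GAG-KOB and lowest in GAG-41B for 2231 of the 3398 lower ones. GAG-KOB itself was the highest of the 5 for 728 and the lowest for 834.

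**Figure D5:**
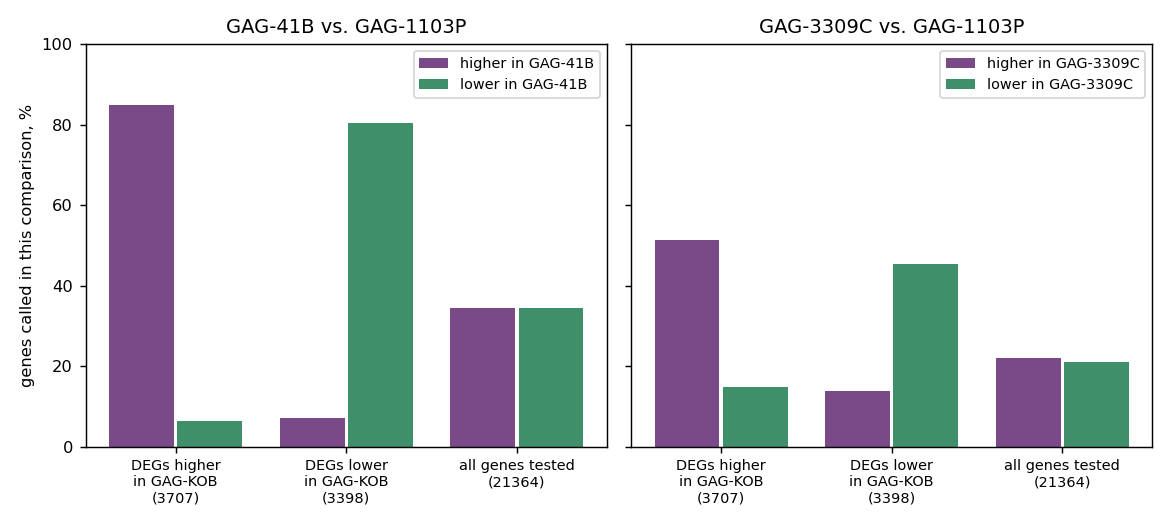
Share (y axis, %) of the DEGs higher in GAG-KOB, of the DEGs lower in GAG-KOB and of all genes tested that were called higher (purple) or lower (green) in GAG-41B vs. GAG-1103P (left) and in GAG-3309C vs. GAG-1103P (right). The purple bar stands at 84.9% for the genes higher in GAG-KOB and the green bar at 80.5% for those lower in GAG-KOB in the left panel, against 34.4% for all genes.

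The stilbene synthases were also read across the 5 combinations. Their summed FPKM averaged 5668 ± 82.3 in GAG-KOB, 2460 ± 62.7 in GAG-17-37, 55589 ± 758 in GAG-41B, 2579 ± 119 in GAG-3309C and 394 ± 21.0 in GAG-1103P (SD, n = 3). GAG-41B was thus highest and GAG-KOB next, GAG-3309C and GAG-17-37 overlapped in their libraries, and GAG-1103P was lowest. For each of the 40 genes the mean was highest in GAG-41B and lowest in GAG-1103P. These genes belong to the annotated set, which was selected on differences from GAG-1103P in these libraries. The place of GAG-1103P and GAG-41B in this order is therefore in part set by the selection.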

How the data were processed

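Single-end poly(A) RNA-seq libraries of leaves were mapped by the authors to the PN40024 grapevine genome, and FPKM values per gene were deposited for all 15 libraries. The processing notes of the submitters name CASAVA 1.8.2, Bowtie2 2.2.4, TopHat2 2.0.14, Cufflinks 2.2.0 and DESeq 1.6.3. FPKM carry no read counts per gene, so that count tests were not run and no counting intervals are given. The study lists mapped reads per library, with GAG-17-37 replicate C the shallowest of the 15, and these totals were not used here. Groups were taken from the labels, and p-values measure the spread between libraries pooled from vines of 1 block. A mean per combination was fitted to log2(FPKM + 0.1) of all 15 libraries with limma 3.58.1 (R 4.3.3, trend), for genes with a mean of 0.1 FPKM or more, and p-values were adjusted over the 21364 genes by Benjamini-Hochberg. The limit for DEGs was 0.05, and 4-fold DEGs had to reach a log2FC of 2 in size as well. On data simulated for this comparison (21081 genes tested), 94% to 98% of the genes changed 4-fold and 86% to 90% of those changed 2-fold were called, with 12 false calls. Only 50 genes were changed for each size and direction, all with a mean of 1 FPKM or more, and the noise was independent between libraries. In the data 7105 genes were called, so that the 12 false calls do not tell how many of these are false. No shift of replicate A and no difference in scaling was simulated, so that these rates do not cover low genes or those features of the data.

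Functional annotation came from the supplementary gene lists of the study, used for names only. The longest of these lists was at hand only in part (1220 rows), so that a gene without annotation here may be annotated by the study. Genes and lists were chosen with earlier results of these data known. Named are the 10 genes that the study names with an identifier, the 10 annotated and 2 unannotated genes with the largest called change in each direction among those with a mean of 1 FPKM or more in the 6 libraries and no overlap, and, by the same limits, the member of every list with the largest change in each direction, so that members with a mean under 1 FPKM are not named by the rule. Identifiers matched none of the RefSeq entries used here, so that no coordinates or sequences are given.

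Replicate letters were checked for pairing by the correlation, across genes, of same-letter deviations from the combination means. Spearman's rho was 0.385, 0.194 and 0.183 for A, B and C, and Pearson's r was 0, 0.014 and −0.01. Same-letter deviations thus went together by the ranks, though not by Pearson's r. The deviations of a combination sum to 0, so that one shared by the A libraries also enters those of B and C. This check therefore cannot decide whether the letters pair the libraries. The reported fit has no term for the letter, and the fit with the letter as a block is given where it changes the call of a named gene. It also changed the counts of several lists, such as NBS and disease resistance genes (30 higher, 6 lower) and terpenoid genes (3 and 10). For genes under 1 FPKM in every library, the log2 ratio between 2 libraries was counted in steps of 0.02. The fullest step held 18.5% to 22.5% of the genes between B or C libraries and 9.75% between the A libraries. Between A and the others it held 1.41% to 1.93%. A ratio shared by many low genes was thus rarer between A and the others, and the cause was not tested. Alternatives were the added FPKM, the filter, the scaling, the 6 libraries alone, the letter as a block, a stricter limit and libraries left out.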

Additional observations from a re-analysis of the deposited data

How the results depend on the processing

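The number of DEGs (7105) was 3980 at an adjusted p of 0.005 and 4020 with the mean of replicates B and C as 1 replicate, an alternative chosen after seeing the data. Without 1 library at a time it was 5891 to 6445, and without replicate A of both combinations 5544. The 118 4-fold DEGs became 30 with 1 FPKM added in place of 0.1, 183 with 0.01 FPKM added, 76 among genes with a mean of 1 FPKM or more, 70 at an adjusted p of 0.005, and 118 to 139 without 1 library at a time. The replicate block gave 9221 DEGs and 138 4-fold DEGs. Among the named genes it changed the call of VvNAC39 and no other, and a block of A against B and C, also added later, gave 9309 DEGs. DEGs were 52.2% higher in GAG-KOB with the values as deposited, 29.5% with the same FPKM total and 63.9% with the same median in every library. More members were higher than lower in 22 of 24 lists, and in 18 with the same total. The log2FC of VvNAC17 (Vv19s0014g03290) was −0.00629 with the same total, and that of VvUBI (Vv16s0098g01190) was −0.17 with quantile normalization. The cause of these changes was not tested. FPKM without read counts set no limit of detection for genes listed at 0.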

Other observations

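Among the 118 4-fold DEGs, 5 pairs carried neighbouring identifiers, and both members of each pair moved in the same direction. They were Vv00s0692g00010 and Vv00s0692g00020 (log2FC −2.20 and −2.21), Vv01s0011g03430 and Vv01s0011g03440 (2.98 and 2.16), Vv07s0141g00060 and Vv07s0141g00070 (2.70 and 2.02), Vv01s0010g03020 and Vv01s0010g03040, and Vv03s0091g00500 and Vv03s0091g00510. Vv01s0010g03020 had 2.41, 2.52 and 4.34 FPKM in GAG-KOB and was listed at 0 in all 3 GAG-17-37 libraries. Whether reads were shared between the members of a pair was not tested.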
